A study of Caenorhabditis elegans with 12 samples.

Results

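The troponin genes of Caenorhabditis elegans were taken as the 10 listed genes that encode a troponin subunit of body wall muscle, pharynx or smaller muscles, out of 20257 genes with a value. They were chosen by gene name: 4 troponin I genes (unc-27, tni-1, tni-3 and tni-4), 4 troponin T genes (mup-2, tnt-2, tnt-3 and tnt-4) and 2 troponin C genes (pat-10 and tnc-2). All 10 names were found and all 10 passed the filter on low values. Levels came from RNA-seq of whole worms, with 12 libraries in 4 groups of 3. Adults of the wild-type strain N2 (written WT) and of glp-1 mutants carrying e2141 were taken on day 1 (D1) or day 6 (D6), and all ate OP50 bacteria. The glp-1 gene encodes a Notch-type receptor that keeps germline stem cells dividing, and e2141 disables it at high temperature, which leaves worms nearly without germ cells. All groups grew at 25 °C up to D1. The D6 groups then went to a cooler temperature, which the labels give as 20, 21 and 22 °C for replicates 1, 2 and 3 in both genotypes and the design text as 20 °C. A change from D1 to D6 and a change of temperature therefore cannot be told apart. The labels do not tell whether the libraries within a group had cultures of their own, and p-values here reflect only library-to-library spread, which may be technical.

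Troponin is the calcium switch of the thin filament. Troponin T anchors the complex to tropomyosin on actin, troponin I holds the filament in its inhibited state, and calcium bound to troponin C lifts that inhibition so that myosin can pull. Worms encode separate troponin genes for different muscles: unc-27, mup-2 and pat-10 serve body wall muscle, and tni-4, tnt-4 and tnc-2 are known as the pharyngeal set. The pharynx is the muscular feeding pump, and the body wall muscles drive crawling. Mutants of unc-27 move poorly, mup-2 mutants have misplaced body wall muscles and disturbed ovulation, and pat-10 mutants arrest as paralysed embryos. In whole worms the muscle of origin was not measured, so these locations are background.

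Values are FPKM (fragments scaled to gene length and to the library's mapped fragments), so a value is a share of the RNA sequenced, and fewer cells of a type and less RNA per cell cannot be told apart. An estimated 17.96 to 20.28 M fragments stood behind each library, and the troponin gene of lowest estimated yield in each library still held an estimated 113 to 463 fragments. Between 11100 and 12113 genes reached 1 FPKM. The glp-1 transcript had 64.4 to 99.3 FPKM in WT and 3.21 to 6.69 in the mutant. Over 20 germline genes, glp-1 libraries held a median of 0.0471% to 0.0692% of the WT level at D1. At D6 these medians were 1.201%, 0.145% and 0.705% in replicates 1, 2 and 3, so replicate 2 stood apart from the other two. The myosin genes of body wall muscle (unc-54, myo-3) and of pharynx (myo-1, myo-2) were detected in all 4 groups. Body wall muscle markers summed to between 864 and 1003 FPKM in WT at D6 and to between 8051 and 10016 in glp-1 at D1, and the part of muscle content in the troponin values was not tested.

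The troponin genes spread over 5 chromosomes of the build WBcel235. On chromosome X lay unc-27 (8789456 to 8790621, plus strand), tni-1 (11375887 to 11377470), mup-2 (6408471 to 6410227), tnt-2 (8721546 to 8723550) and tnt-3 (7937633 to 7945099), the last 4 on the minus strand. On chromosome V lay tni-3 (16833638 to 16835128) and tnt-4 (1989471 to 1992918), both on the minus strand. The gene tni-4 lay on chromosome IV (5204591 to 5207124, plus strand), tnc-2 on chromosome II (10466852 to 10468358, plus strand) and pat-10 on chromosome I (5018783 to 5020358, minus strand). The gene tnt-3 has 11 annotated transcripts and pat-10 has 6, so their FPKM depend on the gene length the authors used. The exons of tnc-2 share 157 bases with clec-143 on the opposite strand, a gene with at most 0.547 FPKM in any library. Those of tni-4 share 16 bases with Y59E9AL.36 on the opposite strand, which had 31.9 to 54.2 FPKM in WT and 2.35 to 3.56 in glp-1. The sources used here do not say whether counting used strand.

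Troponin transcripts together took 0.251% ± 0.0254 (SD, n = 3) of all FPKM at D1 and 0.0624% ± 0.00399 at D6 in WT. In glp-1 they took 0.745% ± 0.0485 and 0.325% ± 0.0206. In all 4 groups pat-10 had the highest level and unc-27 the next. In WT at D1 the order went on with tnt-2 and mup-2, whose library ranges overlapped, then tni-4, tnt-3, tni-3, tnc-2, tni-1 and tnt-4. In that row the ranges of tni-3 and tnc-2 overlapped, as did those of tnc-2 and tni-1. At D6 tni-4 came up beside the troponin T genes: in WT its range overlapped those of mup-2 and tnt-2, and in glp-1 that of mup-2. Within a group the SD was between 2.76% and 35.6% of the mean over the 40 combinations of gene and group, with a median of 11.03%.

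**Figure D1:**
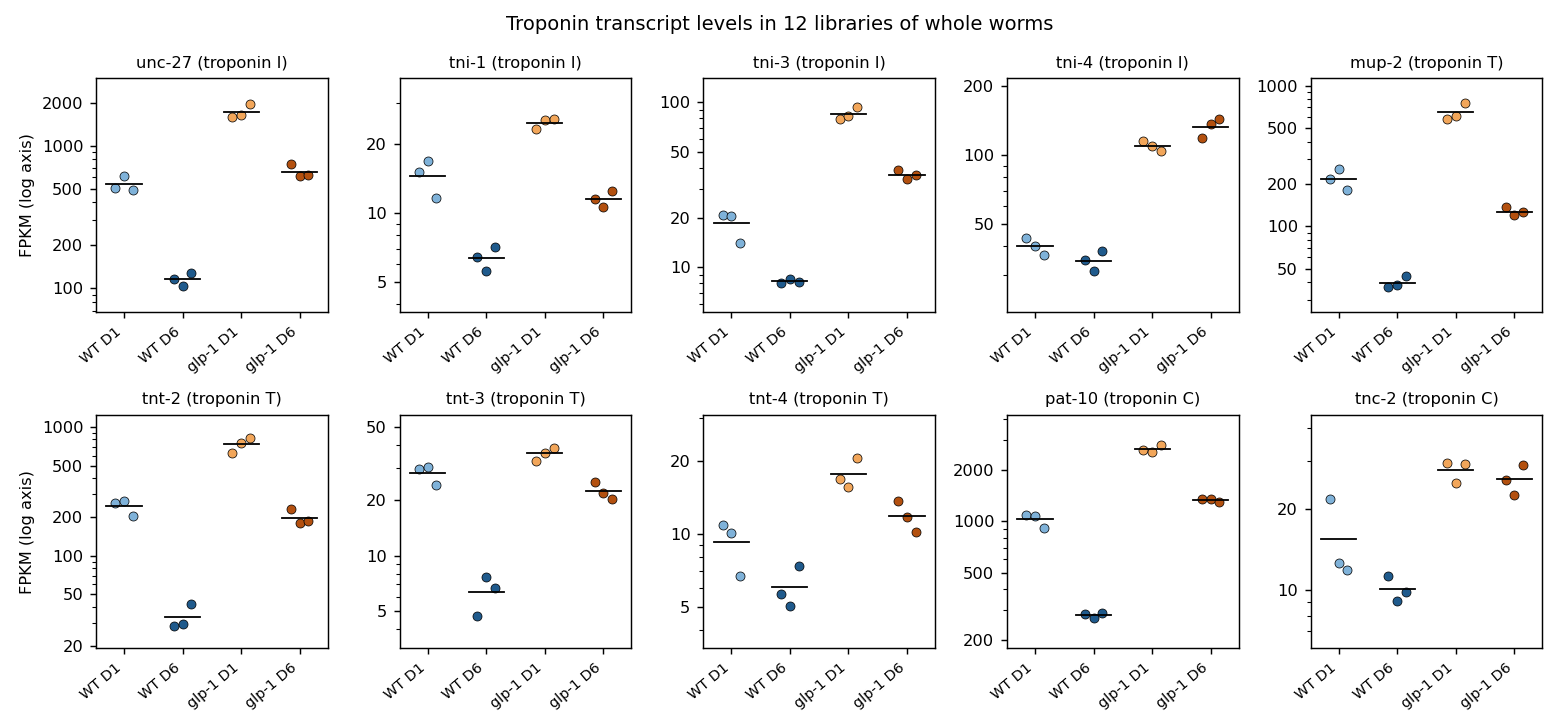
Transcript level of each troponin gene (FPKM, log axis) in the 4 groups, with a point for each library and a line at the mean of 3. For pat-10 the 3 glp-1 D1 libraries lie between 2556 and 2817 FPKM and the 3 WT D6 libraries between 269 and 290, while for tni-4 the D1 and D6 libraries of WT overlap.

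Among troponin I genes, unc-27, the main isoform of body wall muscle, had the highest level. It stood at 509, 611 and 487 FPKM in the WT libraries at D1, and at 116, 103 and 128 at D6. In glp-1 it stood at 1575, 1646 and 1970 FPKM at D1, and at 740, 608 and 620 at D6. Levels were highest in glp-1 at D1 and lowest in WT at D6, and the D6 libraries of glp-1 overlapped the D1 libraries of WT. The groups compared below did not overlap. The mean at D6 was 21.7% of that at D1 in WT and 37.9% in glp-1.

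The troponin I gene tni-3, whose product serves muscles outside the pharynx, had a wide gap between the genotypes. It had 20.8, 20.5 and 14.1 FPKM in WT at D1 and 8.10, 8.51 and 8.14 at D6. In glp-1 it had 79.1, 82.4 and 93.2 FPKM at D1 and 38.9, 34.6 and 36.2 at D6. All 6 glp-1 libraries lay above all 6 WT libraries, and the fold between the means was 4.60 at D1 and 4.43 at D6, against 1.70 and 1.81 for tni-1. The gene tni-1, a further isoform outside the pharynx, ranged from 11.6 to 16.8 FPKM at D1 and 5.58 to 7.10 at D6 in WT, and from 23.2 to 25.7 and 10.6 to 12.5 in glp-1. Within a library, the ratio of tni-3 to tni-1 was 1.27 ± 0.0911 (SD, n = 3) in WT at D1 and 1.31 ± 0.194 at D6, against 3.43 ± 0.189 and 3.17 ± 0.257 in glp-1. This ratio does not depend on how a library is scaled. It was chosen after its values were seen and is given without a test.

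The pharyngeal troponin I gene tni-4 stayed near its D1 level at D6. It had 43.3, 40.3 and 36.8 FPKM in the WT libraries at D1, and 34.9, 31.2 and 38.1 at D6. In glp-1 it had 115.5, 109 and 103.8 FPKM at D1, and 118.5, 136 and 144 at D6. The WT groups overlapped, and the lowest glp-1 library at D6 lay just above the highest at D1.

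Troponin T was shared between mup-2, known from body wall muscle and the contractile sheath of the gonad, and tnt-2, a further troponin T gene. In WT mup-2 had 217, 253 and 181 FPKM at D1 and 37.1, 37.9 and 44.2 at D6. In glp-1 it had 582, 606 and 748 FPKM at D1 and 136, 119.3 and 126 at D6. All 3 glp-1 libraries at D6 lay below all 3 WT libraries at D1. For tnt-2 the WT libraries had 257, 265 and 203 FPKM at D1 and 28.6, 29.3 and 42.3 at D6. The glp-1 libraries had 631, 750 and 824 FPKM of tnt-2 at D1 and 229, 178 and 186 at D6. Its mean at D6 was 13.8% of that at D1 in WT, below the share left of any other troponin gene, and 26.9% in glp-1.

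Levels of tnt-3 and tnt-4 were lower. The troponin T gene tnt-3 had 29.7, 30.4 and 24.3 FPKM in WT at D1 and 4.71, 7.64 and 6.65 at D6. In glp-1 it had 32.9, 36.4 and 38.8 FPKM at D1 and 25.1, 21.9 and 20.4 at D6. The genotypes were thus close at D1 and far apart at D6. The pharyngeal gene tnt-4 ranged from 6.69 to 10.9 FPKM at D1 and 5.06 to 7.35 at D6 in WT, and from 15.7 to 20.6 and 10.2 to 13.6 in glp-1. Its WT groups overlapped.

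Troponin C came almost wholly from pat-10, the isoform of body wall muscle. In WT it had 1093, 1079 and 913 FPKM at D1 and 285, 269 and 290 at D6. In glp-1 it had 2641, 2556 and 2817 FPKM at D1 and 1357, 1363 and 1295 at D6. The 4 groups did not overlap. The pharyngeal gene tnc-2 had 21.7, 12.6 and 11.9 FPKM in WT at D1, with replicate 1 well above the others, and 11.2, 9.08 and 9.84 at D6. In glp-1 it had 29.7, 25.0 and 29.2 FPKM at D1 and 25.6, 22.5 and 29.1 at D6, and these groups overlapped.

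The first comparison asks what differs between animals without and with a germline. At D1 all 10 troponin genes were higher in glp-1 as deposited, while with levels scaled to other sarcomere genes 5 were higher and 1 lower, and with levels scaled to neuron markers 1 was higher and 3 lower. The limma test called 89.4% of 13614 genes in this contrast, 41.3% higher and 48.1% lower, so a call by itself says little. The median log2 fold change was 1.40 over the troponin genes and -0.15 over all genes tested. At D6 all 10 were again higher as deposited (median 1.80, against -0.03 over all genes), where 89.8% of all genes were called, 44.4% higher and 45.4% lower. In that contrast 5 were higher and 2 lower when scaled to other sarcomere genes, and 4 higher and 3 lower when scaled to neuron markers. WT and glp-1 libraries did not overlap for any of the 10 at either age, and the same held for 89.7% of all genes tested at D1 and 89.6% at D6. Markers of other tissues were higher in glp-1 too. Of 22 neuron markers tested 20 were higher at D1 and 21 at D6, and of 14 intestine markers 13 and 14. The neuron markers summed to 554 to 595 FPKM in WT and 801 to 852 in glp-1 at D1, and to 621 to 710 and 1185 to 1229 at D6. The intestine markers summed to 2721 to 4254 FPKM and 5722 to 7220 at D1, and to 2647 to 3018 and 7883 to 8917 at D6. Their part in the troponin values was not tested.

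Among troponin I genes at D1, the log2 difference between glp-1 and WT was 2.16 (SE 0.12) for tni-3, 1.69 (SE 0.12) for unc-27, 1.43 (SE 0.09) for tni-4 and 0.74 (SE 0.13) for tni-1. For troponin T it was 1.602 (SE 0.16) for tnt-2, 1.57 (SE 0.12) for mup-2 and 0.89 (SE 0.18) for tnt-4. The troponin C genes had 1.38 (SE 0.07) for pat-10 and 0.87 (SE 0.18) for tnc-2. Adjusted p for these 9 lay between 4.92e-10 and 0.000569. The smallest difference was that of tnt-3 at 0.35 (SE 0.14, adjusted p = 0.0355), a call that rested on single libraries. Its value was 0.25 (adjusted p = 0.144) without WT D1 replicate 3, 0.34 (0.0761) without glp-1 D1 replicate 2 and 0.30 (0.111) without glp-1 D1 replicate 3. With a pseudocount of 0.1 the adjusted p of tnt-3 was 0.0519, and with no filter 0.0505.

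At D6 the log2 difference between glp-1 and WT was 2.55 (SE 0.16) for tnt-2, 2.49 (SE 0.12) for unc-27, 2.25 (SE 0.07) for pat-10 and 2.02 (SE 0.12) for tni-3. It was 1.91 (SE 0.09) for tni-4, 1.69 (SE 0.14) for tnt-3, 1.65 (SE 0.12) for mup-2 and 1.27 (SE 0.18) for tnc-2. The smallest were those of tnt-4 at 0.88 (SE 0.18) and tni-1 at 0.77 (SE 0.13). Adjusted p lay between 2.87e-12 and 0.000425 over the 10. Scaled to other sarcomere genes, which put the median of all genes at -1.14 in this contrast, all 10 troponin genes lay above that median. On that scale the genes called higher were tnt-2 (1.02, SE 0.15), unc-27 (0.94, SE 0.13), pat-10 (0.70, SE 0.12), tni-3 (0.57, SE 0.13) and tni-4 (0.38, SE 0.16, adjusted p = 0.0345). Those called lower were tni-1 (-0.64, SE 0.16) and tnt-4 (-0.53, SE 0.18, adjusted p = 0.0125).

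**Figure D2:**
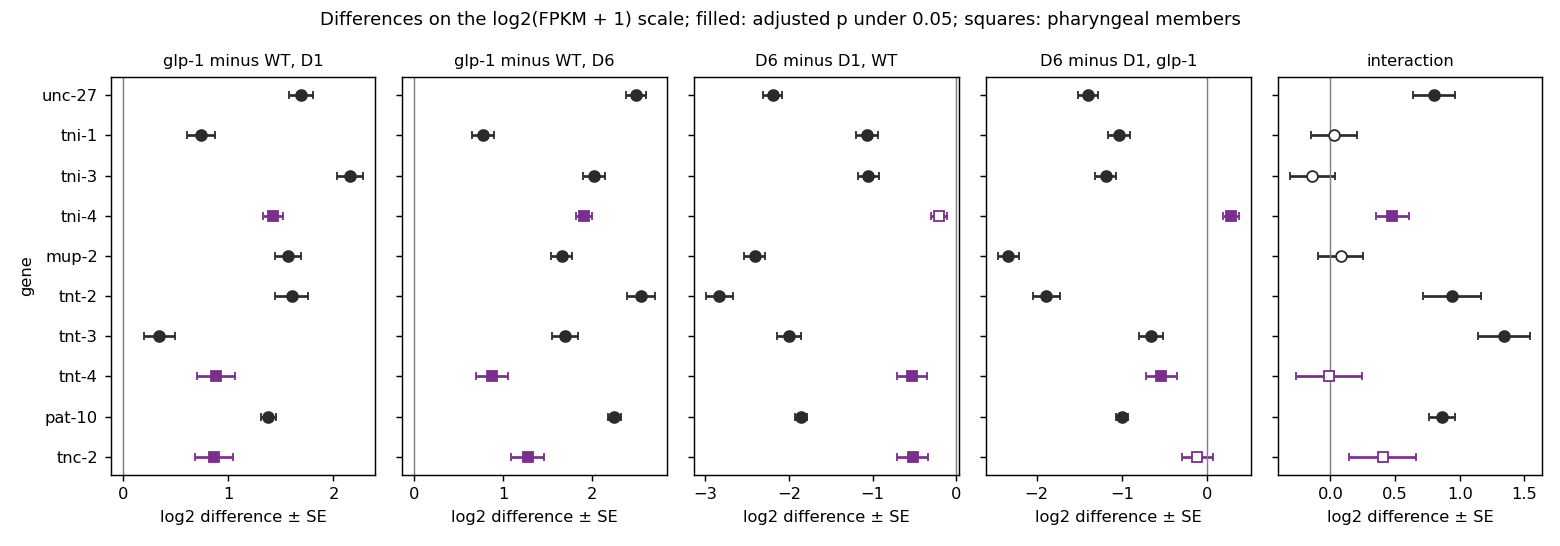
Log2 differences (± SE, limma on log2(FPKM + 1)) of the 10 troponin genes for glp-1 minus WT at each age, D6 minus D1 in each genotype, and the interaction, each panel with its own axis; filled symbols have adjusted p under 0.05 and squares are tni-4, tnt-4 and tnc-2. The 10 genotype differences at D6 run from 0.77 to 2.55, and tni-4 is the one gene whose age changes lie on both sides of 0.

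The balance of higher and lower calls over all genes moved with the library scale. In the deposited values 46.2% of the genes called at D1 were higher in glp-1 and 49.5% at D6. Scaled to 43 other sarcomere genes these shares were 21.1% and 28.9%, with the median of all genes at -0.95 and -1.14. Scaled to 23 neuron markers they were 14.5% and 22.5%, with medians of -1.26 and -1.24. Of the genes called with age, 60.7% were higher in WT and 71.4% in glp-1 as deposited, 91.6% and 94.5% against other sarcomere genes (medians 1.25 and 0.74), and 70% and 47.8% against neuron markers (medians 0.30 and 0.02). Scaled to equal medians of all genes, 56.8% of the calls with age in glp-1 were higher. For the interaction the share was 65% as deposited, 26.2% against sarcomere genes, 33.1% against neuron markers and 48.8% with equal medians.

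With age, troponin transcripts fell in both genotypes on the deposited scale. In WT 9 of the 10 troponin genes fell from D1 to D6 and none rose, while against other sarcomere genes 5 fell and 3 rose. Of all genes 57.7% were called, 22.7% lower and 35.1% higher. The median log2 change was -1.46 over the troponin genes and 0.13 over all genes. In glp-1 8 fell and 1 rose (median -1.02, against 0.20 over all genes), while against other sarcomere genes 4 fell and 2 rose. There 54.7% of all genes were called, 15.6% lower and 39.1% higher. The contrast asks what changes over the first days of adulthood, in animals that also went from 25 °C to a cooler temperature. These 2 changes share no library, so the genotypes can be set side by side.

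In WT the log2 change from D1 to D6 was -2.83 (SE 0.16) for tnt-2, -2.41 (SE 0.12) for mup-2, -2.20 (SE 0.12) for unc-27, -2.004 (SE 0.14) for tnt-3 and -1.86 (SE 0.07) for pat-10. The changes were smaller for tni-1 (-1.07, SE 0.13) and tni-3 (-1.05, SE 0.12), and adjusted p for these 7 lay between 7.63e-10 and 1.82e-05. The pharyngeal set changed least. It had -0.53 (SE 0.18, adjusted p = 0.0230) for tnt-4, -0.52 (SE 0.18, adjusted p = 0.0270) for tnc-2 and -0.21 (SE 0.09, adjusted p = 0.0710) for tni-4, which did not pass. The call of tnt-4 ended without WT D1 replicate 1 (-0.41, adjusted p = 0.0972), WT D1 replicate 2 (-0.46, 0.0790), WT D6 replicate 1 (-0.50, 0.0648) or WT D6 replicate 2 (-0.43, 0.0900), and against neuron markers (-0.40, 0.0595). That of tnc-2 ended without WT D1 replicate 1 (-0.26, 0.102), WT D6 replicate 2 (-0.46, 0.0870) or WT D6 replicate 3 (-0.51, 0.0626), and against neuron markers (-0.37, 0.0770). For tni-4 a call appeared without WT D1 replicate 3 (-0.26, 0.0399) or WT D6 replicate 3 (-0.27, 0.0336).

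In glp-1 the log2 change was -2.33 (SE 0.12) for mup-2, -1.89 (SE 0.16) for tnt-2, -1.40 (SE 0.12) for unc-27, -1.19 (SE 0.12) for tni-3, -1.04 (SE 0.13) for tni-1 and -0.996 (SE 0.07) for pat-10. It was -0.66 (SE 0.14) for tnt-3 and -0.54 (SE 0.18, adjusted p = 0.0219) for tnt-4, and tnc-2 did not pass (-0.12, SE 0.18, adjusted p = 0.631). The gene tni-4 rose by 0.27 (SE 0.09, adjusted p = 0.0224), a call that several libraries carried. It ended without glp-1 D1 replicate 2 (0.27, adjusted p = 0.0533), glp-1 D1 replicate 3 (0.24, 0.0802), glp-1 D6 replicate 2 (0.25, 0.0627) or glp-1 D6 replicate 3 (0.21, 0.0928), against neuron markers (0.02, 0.964) and with equal medians of all genes (0.09, 0.474). The call of tnt-4 ended without glp-1 D1 replicate 3 (-0.43, 0.0927) or glp-1 D6 replicate 3 (-0.44, 0.0843). Without glp-1 D6 replicates 1 and 3, those with more germline transcript, 7 genes fell and none rose, though the changes of tni-4 (0.31, adjusted p = 0.0581) and tnt-4 (-0.54, 0.115) were as large as with them. That fit has a single glp-1 D6 library, which is assumed to vary like the libraries of the other groups.

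Scaled to other sarcomere genes, the changes with age were relative to those genes, and the median of all genes was 1.25 in WT and 0.74 in glp-1. In WT the values of tni-4 (1.03, SE 0.16), tnc-2 (0.66, SE 0.21, adjusted p = 0.00918) and tnt-4 (0.60, SE 0.18, adjusted p = 0.00512) were called higher on that scale, though all 3 lay below the median gene and were negative as deposited. Called lower were tnt-2 (-1.603, SE 0.15), mup-2 (-1.18, SE 0.12), unc-27 (-0.95, SE 0.13), tnt-3 (-0.88, SE 0.13) and pat-10 (-0.61, SE 0.12), while tni-1 (0.07) and tni-3 (0.11) did not pass. In glp-1 tni-4 (1.06, SE 0.16) and tnc-2 (0.64, SE 0.21, adjusted p = 0.0130) were called higher on that scale, tnc-2 below the median gene. Called lower were mup-2 (-1.53), tnt-2 (-1.09), unc-27 (-0.60) and tni-3 (-0.41, adjusted p = 0.0117). The remaining 4 did not pass there.

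**Figure D3:**
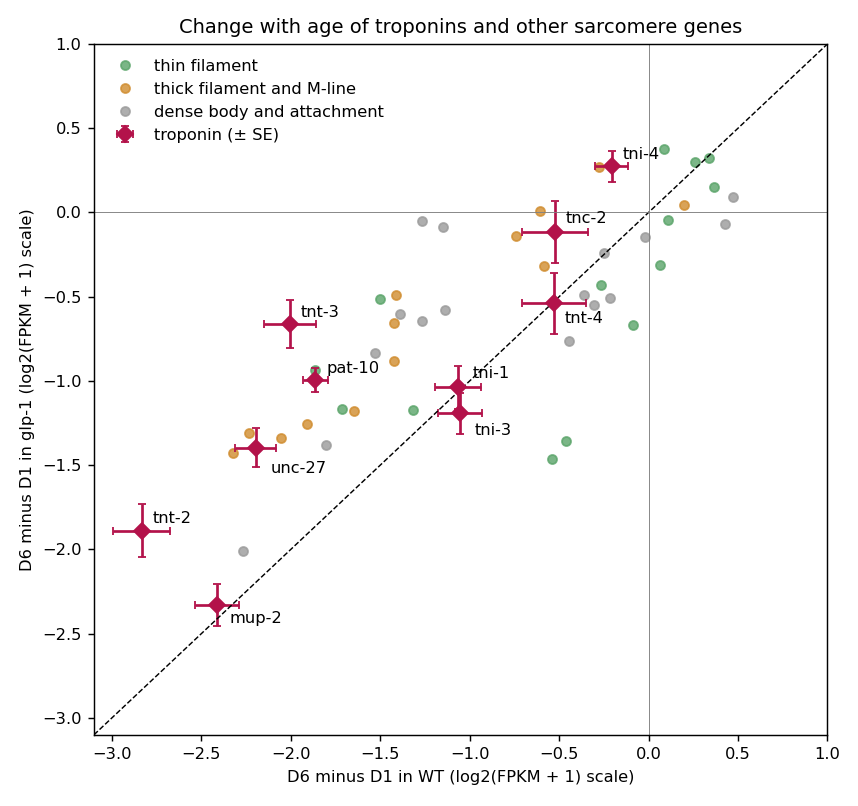
Change from D1 to D6 in WT (x axis) and in glp-1 (y axis), both as limma differences on the log2(FPKM + 1) scale, for the 10 troponin genes (± SE) and for other thin filament, thick filament and dense body genes; the dashed line marks equal change. Above the line lie unc-27, tnt-2, tnt-3, pat-10 and tni-4, with called interaction values from 0.48 to 1.34. The genes tnc-2 (0.41), mup-2 (0.08) and tni-1 (0.03) lie above it too, with interactions that did not pass.

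Whether age acted differently in the genotypes was tested as the interaction, the D6 minus D1 difference of glp-1 less that of WT. It was called for 5 troponin genes, all with a higher value in glp-1, and for none with a lower value. Of all genes 47.5% were called, 30.9% higher and 16.6% lower. The values were 1.34 (SE 0.20, adjusted p = 0.000185) for tnt-3, 0.94 (SE 0.23, adjusted p = 0.00452) for tnt-2, 0.87 (SE 0.10, adjusted p = 2.39e-05) for pat-10, 0.80 (SE 0.16, adjusted p = 0.00156) for unc-27 and 0.48 (SE 0.13, adjusted p = 0.00881) for tni-4. The others did not pass, with 0.41 (SE 0.26) for tnc-2, 0.08 (SE 0.17) for mup-2, 0.03 (SE 0.18) for tni-1, -0.01 (SE 0.25) for tnt-4 and -0.14 (SE 0.18) for tni-3. The median was 0.44 over the troponin genes and 0.15 over all genes. Against other sarcomere genes 3 were called higher, tnt-3 (0.98), tnt-2 (0.51, adjusted p = 0.0468) and pat-10 (0.41, adjusted p = 0.0493), and tni-3 was called lower (-0.51, adjusted p = 0.0305). Against neuron markers 2 were called higher and 1 lower, and with equal medians of all genes 4 were higher.

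Ratios between troponin genes within a library do not depend on its total, and the pharyngeal genes took larger shares at D6. These genes serve different muscles, so a change within a muscle and a change between muscles cannot be told apart. Body wall muscle markers had a mean sum of 3283 FPKM at D1 and 923 at D6 in WT, and 8832 and 3938 in glp-1. Pharynx markers had 154 and 131 in WT, and 158 and 140 in glp-1. The part of either in these shares was not tested. The tni-4 share of all troponin I FPKM was 7.37%, 5.84% and 6.71% in the WT libraries at D1, and 21.0%, 21.0% and 21.0% at D6. In glp-1 it was 6.44%, 5.85% and 4.73% at D1, and 13.04%, 17.2% and 17.7% at D6. All 6 libraries at D6 lay above all 6 at D1. The mean rise was 12.3 percentage points over both genotypes, with p = 0.005 in an exact two-sided permutation test within genotypes, the smallest p it can give, and 0.00714 after Benjamini-Hochberg adjustment over the 10 ratio comparisons. These comparisons were chosen with earlier results of these data known, so their p-values are not independent support.

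Troponin T and troponin C moved the same way. The tnt-4 share of troponin T was 1.84% ± 0.254 (SD, n = 3) at D1 and 7.03% ± 0.607 at D6 in WT, and 1.23% ± 0.111 and 3.30% ± 0.296 in glp-1. The tnc-2 share of troponin C was 1.46% ± 0.426 and 3.45% ± 0.299 in WT, and 1.03% ± 0.0724 and 1.89% ± 0.289 in glp-1. Both rose with age, by 3.62 and 1.42 percentage points, and both were lower in glp-1 than in WT, by 2.17 and 0.991 points (exact permutation p = 0.005 and adjusted p = 0.00714 for each of the 4). For tni-4 the share was lower in glp-1 by 2.98 points (exact permutation p = 0.015, adjusted p = 0.0167). That difference was 1.08 points (adjusted p = 0.62) with unc-27 left out of the sum, and with same-numbered replicates paired its adjusted p was 0.0694.

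**Figure D4:**
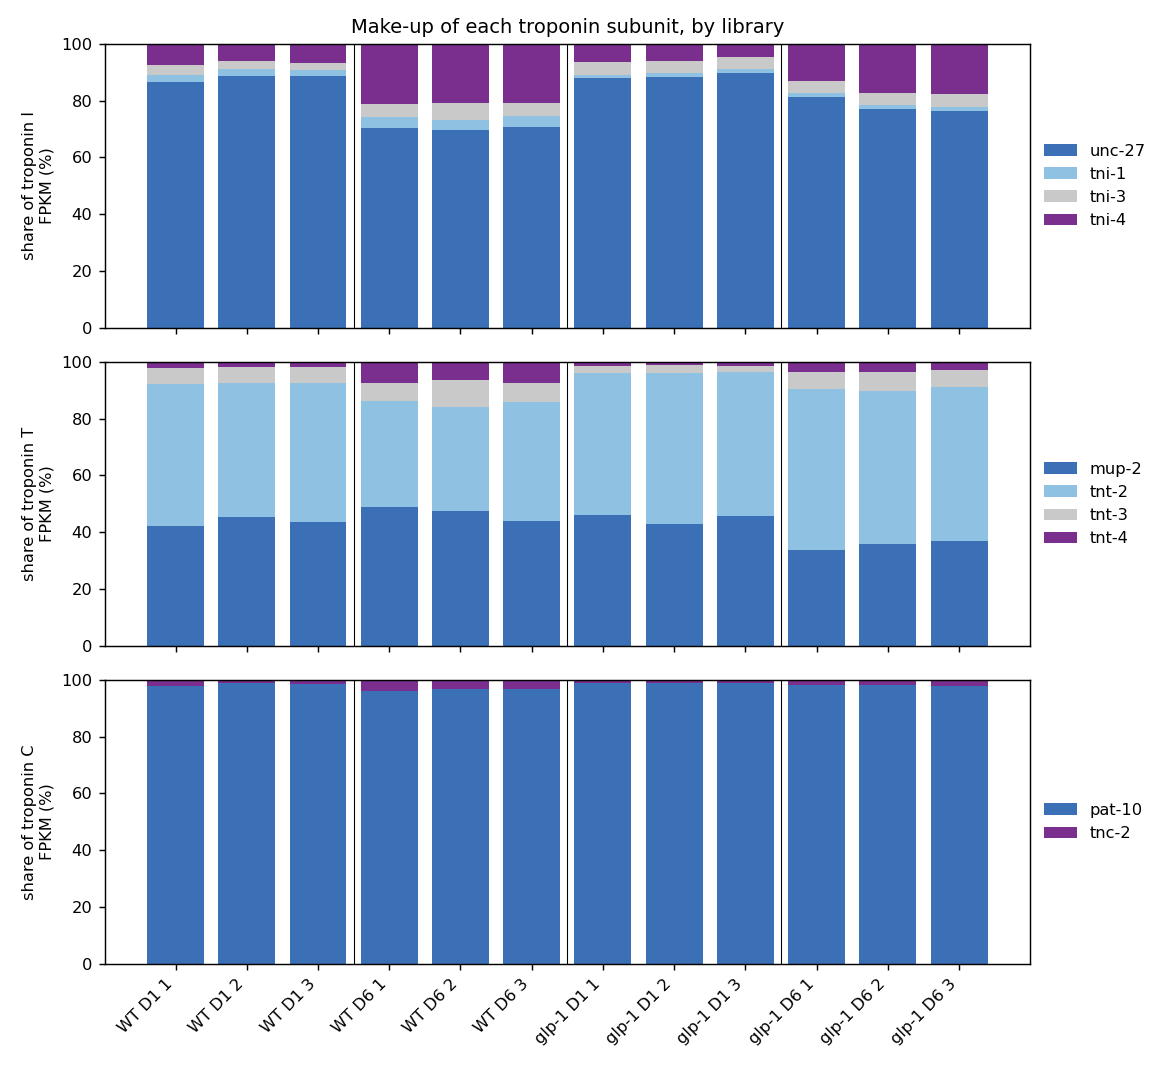
Share of each gene in the summed FPKM of its subunit (percent), by library, for troponin I, troponin T and troponin C; purple marks tni-4, tnt-4 and tnc-2. The purple parts are larger at D6 than at D1, and tnt-2 takes 53.8% to 56.7% of troponin T in glp-1 at D6 against 36.6% to 42.1% in WT at D6.

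Shares also differed among the troponin T genes other than tnt-4. The tnt-2 share of troponin T was 48.8% ± 1.26 (SD, n = 3) at D1 and 38.8% ± 2.91 at D6 in WT, and 51.2% ± 1.77 and 54.96% ± 1.53 in glp-1. The mup-2 share lay between 42.2% and 45.3% at D1 and 43.99% and 48.8% at D6 in WT, and between 43.04% and 46.1% and 33.7% and 36.7% in glp-1. The ratio of tnt-2 to mup-2 thus went from 1.12 ± 0.0684 to 0.833 ± 0.107 with age in WT, and from 1.14 ± 0.0842 to 1.55 ± 0.113 in glp-1. In both genotypes the ranges at D1 and D6 did not overlap, and they moved in opposite directions. The tnt-3 share was 5.69% ± 0.220 at D1 and 7.46% ± 1.84 at D6 in WT, and 2.52% ± 0.128 and 6.26% ± 0.331 in glp-1. These shares and ratios of mup-2, tnt-2 and tnt-3 were picked after their values were seen and carry no test.

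The subunits did not keep a constant ratio to each other. Summed troponin I was 609 ± 72.2 FPKM (SD, n = 3) at D1 and 165 ± 16.5 at D6 in WT, and 1949 ± 214 and 837 ± 63.5 in glp-1. Summed troponin T was 496 ± 73.6 and 85.5 ± 13.1 in WT, and 1434 ± 186 and 359 ± 39.4 in glp-1. Summed troponin C was 1043 ± 103.7 and 291 ± 11.7 in WT, and 2699 ± 135 and 1364 ± 34.6 in glp-1. Troponin T was lower relative to the other subunits at D6. The log2 ratio of troponin I to troponin T was 0.72 higher at D6 than at D1, and that of troponin C to troponin T was 0.86 higher (exact permutation p = 0.005, adjusted p = 0.00714 for each). Between genotypes the log2 ratio of troponin I to troponin T was 0.21 higher in glp-1 (exact permutation p = 0.01, adjusted p = 0.0125), and with the most abundant gene of each subunit left out it was 0.19 (adjusted p = 0.0743). That of troponin C to troponin T did not pass between genotypes (-0.00456, exact permutation p = 0.96). It was -0.41 (adjusted p = 0.0400) with the most abundant gene of each subunit left out, which leaves tnc-2 alone for troponin C.

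**Figure D5:**
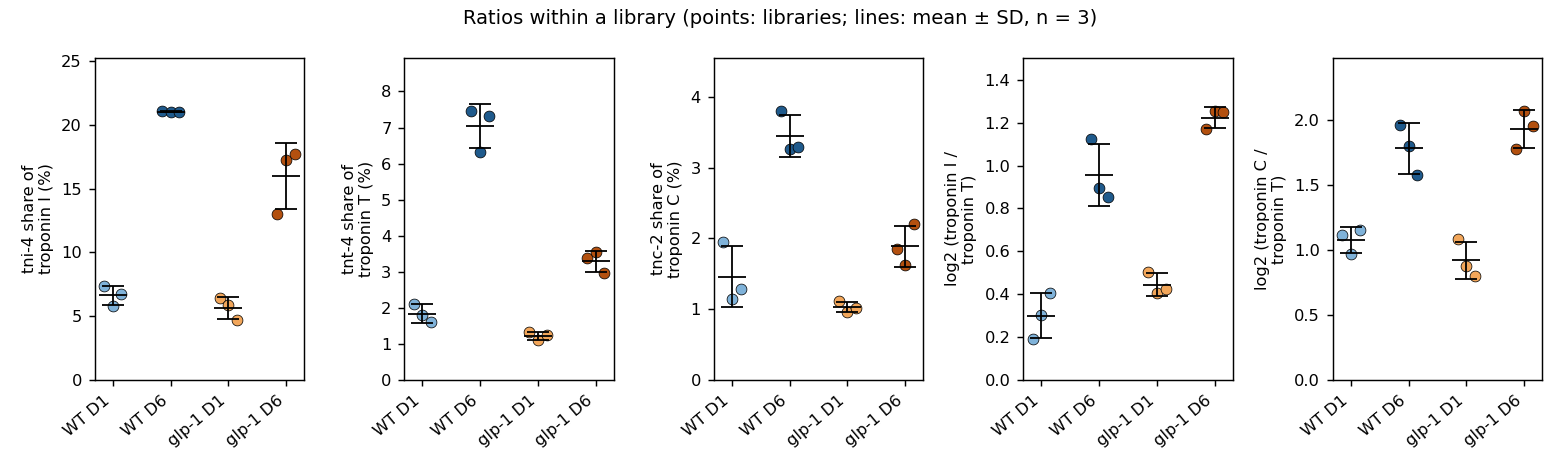
Ratios within a library: share (percent) of tni-4, tnt-4 and tnc-2 in their subunit, and log2 ratios of summed troponin I and troponin C to summed troponin T, with a point for each library and the mean ± SD of 3. In all 5 panels the D6 libraries lie above the D1 libraries of the same genotype.

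The other parts of the sarcomere were read from lists of partners. Tropomyosin (lev-11), the protein on which troponin sits, had a mean of 898 FPKM at D1 and 272 at D6 in WT, and of 2415 and 1071 in glp-1. The ratio of pat-10 to lev-11 within a library was 1.15 ± 0.0529 and 1.04 ± 0.0705 in WT, and 1.11 ± 0.0911 and 1.25 ± 0.0853 in glp-1 (SD, n = 3). For the actin gene act-4 the log2 change with age was -1.32 (SE 0.10) in WT and -1.17 (SE 0.10) in glp-1. Of 14 thin filament genes tested, 8 were higher in glp-1 at D1 and 5 lower, led by unc-87 (1.54, SE 0.11), which binds and stabilizes actin filaments, and act-2 (-2.18, SE 0.07). With age 6 fell and 3 rose in WT, and 8 fell and 3 rose in glp-1. Over all genes tested 41.3% were higher and 48.1% lower in glp-1 at D1. With age 22.7% of all genes fell and 35.1% rose in WT, and 15.6% and 39.1% in glp-1. The actin genes act-1, act-2 and act-3 are near-identical copies and uncertain singly.

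Among genes of the thick filament, glp-1 had the higher level for most. Of 13 tested, 12 were higher in glp-1 at D1, 11 fell with age in WT and 9 in glp-1, and the chaperone gene unc-45, which folds myosin, was lower in glp-1 (-1.05, SE 0.07). The muscle myosin unc-54 had age changes of -2.32 (SE 0.17) in WT and -1.42 (SE 0.17) in glp-1, the paramyosin unc-15 had -2.23 (SE 0.17) and -1.31 (SE 0.17), and the myosin myo-3 had -1.41 (SE 0.12) and -0.49 (SE 0.12). Of 16 genes of dense bodies and attachment 14 were higher in glp-1 at D1, 12 fell with age in WT and 10 in glp-1, led by the perlecan gene unc-52 (-2.26, SE 0.10, and -2.01, SE 0.10). The interaction was called higher for 8 of the 13 thick filament genes and 6 of the 16 dense body genes, and lower for 0 and 1, where 30.9% of all genes were called higher and 16.6% lower. At D1 41.3% of all genes were higher in glp-1, and 22.7% fell with age in WT and 15.6% in glp-1.

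The pharyngeal troponins can be set beside the pharyngeal myosins. In WT myo-1 (-1.03, SE 0.15) and myo-2 (-0.76, SE 0.13) fell with age, and in glp-1 they fell by 0.79 (SE 0.15) and 0.57 (SE 0.13). Of the 13 pharynx markers tested 10 fell with age in WT and 1 rose (eya-1, 0.37, SE 0.14), and in glp-1 4 fell and 2 rose, led by phat-3 (0.82, SE 0.14). Of all genes 22.7% fell and 35.1% rose in WT, and 15.6% and 39.1% in glp-1. Within a library the ratio of tnt-4 to myo-2 was 0.878 ± 0.0837 (SD, n = 3) at D1 and 1.07 ± 0.246 at D6 in WT, and 0.836 ± 0.0898 and 0.852 ± 0.0646 in glp-1. The ratio of tni-4 to myo-2 was 3.90 ± 0.392 and 6.19 ± 1.35 in WT, and 5.20 ± 0.518 and 9.68 ± 1.72 in glp-1, and its D1 and D6 ranges did not overlap in either genotype. The ratio of tnc-2 to myo-2 was 1.47 ± 0.396 and 1.81 ± 0.542 in WT, with overlapping ranges, and 1.33 ± 0.138 and 1.87 ± 0.314 in glp-1, without overlap. These ratios were picked after their values were seen. The pharynx marker list as a whole summed to 149 to 157 FPKM at D1 and 125 to 134 at D6 in WT, and to 156 to 162 and 139 to 141 in glp-1. A large part of that sum was ttx-7, with a mean of 75.1 FPKM in WT at D1. At D1 5 of the 13 were higher and 4 lower in glp-1, close to the 41.3% and 48.1% of all genes. The 5 higher were myo-1 (0.84, SE 0.15), myo-2 (0.96, SE 0.13), myo-5 (1.05, SE 0.13), phat-3 (0.64, SE 0.14) and marg-1 (1.003, SE 0.17). The 4 lower were eya-1 (-2.40, SE 0.14), eat-20 (-0.86, SE 0.12), pha-4 (-0.64, SE 0.18) and ttx-7 (-0.26, SE 0.06). The defining genes myo-1 and myo-2 were not at 0 in any library.

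Genes listed under calcium handling were largely higher in glp-1 as deposited, with 12 of 15 higher and 1 lower at D1 and 14 higher at D6. At D1 the largest rise was that of itr-1 (1.94, SE 0.07), and the lower gene was crt-1 (-0.59, SE 0.08). Over all genes tested 41.3% were higher and 48.1% lower at D1, and 44.4% were higher at D6. The calsequestrin gene csq-1, for the calcium store protein of muscle, had log2 changes with age of -1.64 (SE 0.09) in WT and -0.75 (SE 0.09) in glp-1. The calcium channel egl-19 had -0.67 (SE 0.14) and 0.02 (SE 0.14, adjusted p = 0.947), and the ryanodine receptor unc-68 had -0.58 (SE 0.12) and -0.49 (SE 0.12). The calcium pump gene sca-1, also used outside muscle, did not pass in any of these contrasts (0.08, SE 0.07 with age in WT). With age 7 of the 15 fell and 2 rose in WT, and 3 fell and 4 rose in glp-1. Over all genes tested 22.7% fell and 35.1% rose in WT, and 15.6% fell and 39.1% rose in glp-1.

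Genes listed as transcription factors of muscle changed with age too. Of 7 tested, 5 fell with age in WT and 1 rose, and in glp-1 2 fell and 1 rose, where 22.7% and 15.6% of all genes fell. The gene that rose in both was egl-43 (0.74, SE 0.17 in WT and 1.43, SE 0.17 in glp-1). The largest fall in WT was that of pha-4 (-1.93). Others that fell there included hlh-1, the worm MyoD (-1.76, SE 0.17), unc-120, a factor of the SRF family (-1.47, SE 0.14), and the pharyngeal homeobox gene ceh-22 (-0.69, SE 0.17). In glp-1 hlh-1 (-0.54, SE 0.17) and unc-120 (-0.39, SE 0.14) fell and ceh-22 did not pass (0.28, SE 0.17). Between genotypes at D1, unc-120 (0.68, SE 0.14) and hlh-8 (1.06, SE 0.27) were higher in glp-1. Lower were pha-4 (-0.64, SE 0.18) and hnd-1 (-2.81, SE 0.16), the latter with a mean of 6.14 FPKM in WT and 0 in glp-1. At D1 hlh-1 did not pass between genotypes (-0.36, SE 0.17, adjusted p = 0.0654). In whole worms the cells that the transcripts of these listed factors came from were not measured, and glp-1 worms have nearly no germ cells. The values therefore do not show how the factors and the troponins relate within muscle. The mean level of hlh-1 was at most 5.19 FPKM in a group and that of ceh-22 at most 1.06, so their fold changes on this scale are understated.

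Genes whose pattern lay closest to each troponin were found by the root mean square difference over the 12 libraries, in log2(FPKM + 1) after centring each gene. For pat-10 they were K09G1.1 (0.0986), the calponin-related gene cpn-3 (0.122) and lev-11 (0.127). For unc-27 they were gsnl-1 (0.140), unc-15 (0.146) and T23E7.2 (0.154), and for mup-2 W10C8.5 (0.103), unc-52 (0.184) and Y47G6A.33 (0.195). The nearest to tnt-2 were col-122 (0.165), clik-1 (0.201) and col-181 (0.241), and to tnt-3 epi-1 (0.179), a laminin gene. The glycolytic genes gpd-3 (0.127) and aldo-1 (0.184) were nearest to tni-3. For the pharyngeal genes the nearest were C06A12.3 (0.1004) for tni-4, Y45G5AM.6 (0.155) for tnt-4 and K02E11.6 (0.169) for tnc-2, and F17A9.4 (0.136) was nearest to tni-1. Among the troponins, unc-27 and pat-10 lay 0.253 apart and tnt-4 and tnc-2 0.286, while tni-4 and tnt-2 lay 1.24 apart. The pairs did not all group by muscle: tnt-4 lay 0.307 from tni-1, an isoform outside the pharynx, and 0.539 from the pharyngeal tni-4.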

How the data were processed

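Whole-worm RNA was measured in 12 libraries, 3 per group. RNA was extracted with TRIzol and made into libraries with a NEBNext kit, per the labels' protocols, and sequenced on an Illumina NovaSeq, per the design text. The deposited values are FPKM, 1 per gene and library, per the file headers. HISAT2 2.0.4, DESeq2 1.6.3 and the build WBcel235 are named in the submitters' processing notes. Which program gave the FPKM, with what annotation and strand setting, the sources used here do not say. FPKM cannot be turned into exact counts, so depth was estimated from the spacing of low FPKM over 12771 genes having a single transcript in Ensembl's WBcel235 annotation, and intervals for counting error were not computed. No 2 files held identical values. Coordinates come from that annotation.

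FPKM were used as deposited. A gene was kept where 3 or more libraries reached 1 FPKM (13614 tested, 6643 left out). Log2(FPKM + 1) was fitted with limma 3.58.1 in R 4.3.3, with a mean per group over the 12 libraries, 8 residual degrees of freedom, and a variance trend with robust empirical Bayes moderation. Fold changes on this scale understate low genes. Adjusted p is Benjamini-Hochberg over the genes tested, a gene was called under 0.05, and tests are two-sided. The fit and the permutation test were tested on simulated data. Ratios within a library were computed in Python 3.11.15 and tested by exact permutation within strata (400 assignments). Alternatives changed the pseudocount, filter, moderation, scaling, groups in the fit, a replicate block and left-out libraries.

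The members, lists and tests were chosen with earlier results of these data known. Named genes are the 10 troponins, a set of sarcomere, calcium and regulator genes, the gene with the largest called rise and fall of a list, and the 3 nearest genes to each troponin, of which some are printed. The name tmd-1 in the thin filament list was not found. Same-numbered libraries did not deviate together: the correlation of their deviations from the group means lay between -0.144 and 0.146 over 18 pairs, and 1 was over 0.1.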

Additional observations from a re-analysis of the deposited data

Results flagged for a closer look

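The change with age differed between genotypes for 5 troponin genes, by the interaction term of the limma fit over 12 libraries. The interaction (change in glp-1 minus change in WT, log2) was 1.34 for the troponin T gene tnt-3, 0.94 for the troponin T gene tnt-2, 0.87 for the troponin C gene pat-10, 0.80 for the troponin I gene unc-27 and 0.48 for the pharyngeal troponin I gene tni-4. For tnt-3, tnt-2, pat-10 and unc-27 the level fell with age in both genotypes and by less in glp-1, while tni-4 did not pass in WT and was higher at D6 in glp-1. Over all genes tested, 47.5% had a called interaction, 30.9% of this sign and 16.6% of the other, so a count of 5 in 10 by itself says little. Markers of several tissues had calls of this sign. Of 21 body wall muscle markers 14 had one and 0 had the other sign. So did 9 of 14 intestine, 11 of 22 neuron and 4 of 13 pharynx markers, with 1 of the other sign in each list. The body wall sum went from between 2857 and 3630 FPKM at D1 to between 864 and 1003 at D6 in WT. In glp-1 it went from between 8051 and 10016 to between 3742 and 4276. The part of these markers in the troponin values was not tested. Scaled to other sarcomere genes, unc-27 (0.35, adjusted p = 0.118) and tni-4 (0.03, adjusted p = 0.907) did not pass. Against neuron markers tnt-2 (0.53, adjusted p = 0.0553), unc-27 (0.37, adjusted p = 0.176) and tni-4 (0.05, adjusted p = 0.831) did not pass. With equal medians of all genes tni-4 did not pass (0.28, adjusted p = 0.104). The calls of tnt-3 and pat-10 held under each of these scalings.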

How the results depend on the processing

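Scaling moved the counts most. Against neuron markers, 1 troponin gene was higher in glp-1 and 3 lower at D1, 4 and 3 at D6, and 2 and 1 for the interaction. Against other sarcomere genes these counts were 5 and 1, 5 and 2, and 3 and 1, with age in WT 3 and 5, and with age in glp-1 2 and 4. With age in glp-1, 0 were higher against neuron markers (4527 genes called in all) and with equal medians, where tni-4 had 0.02 and 0.09. The count was also 0 without glp-1 D6 replicates 1 and 3, an alternative chosen after the data were seen, where tni-4 had 0.31 (0.27 with all libraries, adjusted p = 0.0581 against 0.0224) and 1 library was left in that group. Leaving out single libraries, that count lay between 0 and 1.

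Genes whose direction turned against neuron markers were, at D1, tni-1 (-0.57), tnt-3 (-0.99), tnt-4 (-0.39), pat-10 (-0.00094) and tnc-2 (-0.45), and at D6 tni-1 (-0.85), mup-2 (-0.13), tnt-4 (-0.74) and tnc-2 (-0.43). Against other sarcomere genes they were, at D1, tni-1 (-0.29), tnt-3 (-0.71), tnt-4 (-0.13) and tnc-2 (-0.18), and at D6 tni-1 (-0.64), tnt-4 (-0.53) and tnc-2 (-0.19). With age in WT they were tni-1 (0.071), tni-3 (0.11), tni-4 (1.03), tnt-4 (0.60) and tnc-2 (0.66), and in glp-1 tnt-3 (0.11), tnt-4 (0.20) and tnc-2 (0.64). Interactions that did not pass turned for tni-1 (-0.28 neuron, -0.35 sarcomere, -0.16 equal medians, -0.0793 without glp-1 D6 replicates 1 and 3), mup-2 (-0.33, -0.35, -0.12 and -0.0067 likewise), tnc-2 (-0.0167, sarcomere) and tnt-4 (0.0193, pseudocount 0.1). Without single libraries they ran from -0.0792 to 0.17 for tni-1, -0.23 to 0.0344 for tni-3, -0.0361 to 0.21 for mup-2 and -0.13 to 0.18 for tnt-4. The cause was not tested.

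With the most abundant gene of each subunit left out, the genotype difference was -1.08 points for the tni-4 share, 0.19 for the log2 ratio of troponin I to T and -0.41 for that of C to T. With all genes kept, the difference in the ratio of C to T was -0.00456, and it ran from -0.0554 to 0.0412 without single libraries. With the replicate block the tni-4 share still differed by -2.98 points (adjusted p = 0.0694), and the block changed no limma call of a troponin gene. The numbers did not pair the libraries. The spread of 3 libraries limits small differences, and FPKM carry no exact depth.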

Other observations

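Calmodulin and its relatives bind calcium through the same kind of domain as troponin C. Calmodulin itself, cmd-1, differed little: its mean was 399.7 FPKM at D1 and 447 at D6 in WT, and 367 and 410.1 in glp-1. Of all genes 41.3% were higher in glp-1 at D1 and 48.1% lower. Among 7 calmodulin family genes tested, 6 were higher in that contrast and cmd-1 was lower (-0.12, SE 0.05, adjusted p = 0.0423). The largest rise was that of the calmodulin-like gene cal-5 (2.505, SE 0.07). With age in glp-1, cal-2 (1.21, SE 0.22) and cal-1 (0.98, SE 0.21) rose and cal-5 fell by 1.37 (SE 0.07). In all 6 of the 7 rose there and 1 fell, where 39.1% of all genes rose and 15.6% fell.

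Markers of other contractile tissue were read beside the troponins. Gonadal sheath markers, from the contractile cells around the oocytes, summed to 289 to 312 FPKM in WT at D1 and 332 to 350 at D6, and to 297 to 315 and 508 to 558 in glp-1. At D1 6 of these 8 genes were higher in glp-1 and 1 was lower, plst-1 (-1.70, SE 0.07). Of all genes 41.3% were higher and 48.1% lower in that contrast. With age in WT 3 of the 8 rose and 2 fell, where 35.1% and 22.7% of all genes did. With age in glp-1 5 rose and none fell, led by the gap junction gene inx-8 (1.42). Over all genes tested 39.1% rose and 15.6% fell there. Of 6 vulval and enteric muscle markers 3 were tested, all 3 were higher in glp-1 at both ages, and arg-1 stayed below 0.1 FPKM as a group in all 4 groups. The share of all genes higher in glp-1 was 41.3% at D1 and 44.4% at D6.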
